A study of Mus musculus with 4 samples.

Results

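The regions described here are windows of 100 kb on the mouse autosomes that are poor in CpG sites and hold no protein-coding gene. A window was taken when 100 to 500 of its CpGs had at least 5 methylation calls in both deposited tables and no annotated protein-coding gene overlapped it. The rule used sequencing depth and annotation, and no methylation value. It gave 5414 windows of the 23722 autosomal windows with at least 100 such CpGs, or 541.4 Mb, which held 11.4% of the autosomal CpGs with 5 calls in both tables.

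The cells are germline stem (GS) cells, spermatogonial stem cells of the mouse testis that are propagated in culture with GDNF and FGF2 and little serum. They are labelled wild type and carried the EGFP transgene of the Green mouse (C57BL/6 Tg14(act-EGFP)OsbY01) on a DBA/2 background, in both groups alike. Cultures of about 5 months (5M-GS) and about 60 months (60M-GS) were compared by whole-genome bisulfite sequencing with post-bisulfite adaptor tagging, which adds adaptors after the bisulfite step. Each culture age had 2 replicates, which share 1 table. The spread between replicates is therefore unknown here, and every test compares 2 pooled libraries. How many separate cultures the replicates came from is not given in the sources used here. Of the germ cell genes that are methylated in somatic tissues, 5 were checked at their less methylated end. Dazl, Ddx4, Mael, Tdrd1 and Sycp3 all stood between 0.514% and 6.27% in both tables.

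Most CpGs of a mammalian genome are methylated, and the methyl mark is copied to the new strand after each round of DNA replication. In many cultured cells, tumours and the placenta, long stretches that are poor in genes and CpGs and that replicate late hold less methylation than the rest of the genome and are known as partially methylated domains. In the male germline the methylation pattern is laid down before birth and carried on by the stem cells. The levels below are measurements of these windows and were not used to call such domains.

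Only non-coding genes can start inside these windows, and their 5' ends are given as examples of the DNA there. RefSeq promoter sequences (GRCm38.p6, from 250 bases before to 50 after the start) lay wholly inside the windows in 843 cases, all of them of lncRNA genes. They held a median of 2 CpGs against 7 over all 32851 promoter sequences, and 85.1% of them had 4 or fewer, against 38.0% of all. The windows were chosen for few CpGs, so low numbers here follow in part from the rule. The 32851 sequences were also not limited to lncRNA genes. The 5 printed here, chosen after their values were seen, were picked to show sparse CpGs that differed along with their window, a denser end that differed more than its window and a dense end that was unmethylated in both tables. Each is given 5' to 3' on the gene's strand, with every CpG in capitals. They lie at chr7:61311600-61311899 (minus strand), chr8:59825399-59825698 (plus), chr1:96997511-96997810 (minus), chr13:35211999-35212298 (minus) and chr16:87128390-87128689 (minus), in the order printed.
A230006K03Rik: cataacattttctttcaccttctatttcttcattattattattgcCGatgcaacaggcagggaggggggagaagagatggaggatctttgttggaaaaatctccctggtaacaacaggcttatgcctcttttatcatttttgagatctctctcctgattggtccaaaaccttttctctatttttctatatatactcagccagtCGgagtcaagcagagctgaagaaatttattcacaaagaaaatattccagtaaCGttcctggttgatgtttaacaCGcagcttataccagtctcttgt
4930470O06Rik: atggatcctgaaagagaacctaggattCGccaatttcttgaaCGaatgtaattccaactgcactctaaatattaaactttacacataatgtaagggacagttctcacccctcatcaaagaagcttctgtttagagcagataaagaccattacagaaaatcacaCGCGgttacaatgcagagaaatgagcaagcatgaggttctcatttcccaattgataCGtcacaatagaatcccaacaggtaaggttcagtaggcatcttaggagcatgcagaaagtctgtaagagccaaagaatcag
Slco6b1: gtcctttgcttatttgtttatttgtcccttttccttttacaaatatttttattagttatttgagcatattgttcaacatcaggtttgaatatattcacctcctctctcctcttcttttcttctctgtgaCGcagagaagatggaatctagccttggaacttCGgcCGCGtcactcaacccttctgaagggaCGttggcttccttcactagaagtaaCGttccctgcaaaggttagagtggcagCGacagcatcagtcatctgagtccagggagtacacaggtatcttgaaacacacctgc
1700019C18Rik: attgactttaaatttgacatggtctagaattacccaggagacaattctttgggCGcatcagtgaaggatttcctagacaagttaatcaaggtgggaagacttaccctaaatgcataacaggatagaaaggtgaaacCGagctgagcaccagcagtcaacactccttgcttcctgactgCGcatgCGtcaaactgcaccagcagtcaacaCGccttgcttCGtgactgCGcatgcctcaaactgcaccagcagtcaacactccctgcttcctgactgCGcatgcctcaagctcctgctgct
Gm32865: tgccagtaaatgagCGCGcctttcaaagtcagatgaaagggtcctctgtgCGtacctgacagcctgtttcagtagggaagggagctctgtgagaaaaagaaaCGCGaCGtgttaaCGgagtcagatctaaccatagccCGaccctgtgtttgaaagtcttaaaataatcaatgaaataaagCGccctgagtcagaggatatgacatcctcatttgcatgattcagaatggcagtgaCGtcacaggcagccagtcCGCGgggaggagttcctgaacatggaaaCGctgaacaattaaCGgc

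The 4 CpGs of the A230006K03Rik end were at 22.2% in 5M-GS (108 calls) and 73.5% in 60M-GS (68 calls), inside a window that went from 47.0% to 75.2%. In the order of the sequence, they were at 4.76%, 57.7%, 12.9% and 13.3% in 5M-GS and at 0%, 100%, 100% and 90.0% in 60M-GS. The first CpG, at base 46, was therefore low in both tables while the other 3 were high in 60M-GS. The end of 4930470O06Rik was at 57.6% and 92.8% in a window at 62.8% and 85.8%, and its 4 measured CpGs lay between 46.7% and 70% in 5M-GS, compared with 89.5% to 94.4% in 60M-GS. At Slco6b1, annotated as a non-coding gene, the level was 10.9% (interval 7.50 to 15.6) and 92.1% (86.9 to 95.3), a far larger step than that of its window, from 75.1% to 85.1%. The 8 CpGs of 1700019C18Rik were at 3.16% of 190 calls and 97.1% of 172 calls, while their window, at 82.9% and 86.1%, did not reach 10 points. These 2 ends are extremes. Of the 403 ends with at least 2 measured CpGs, that of 1700019C18Rik differed by most, and that of Slco6b1 by most in windows that rose. The median difference over the 403 was 0.630 points. The 14 CpGs of Gm32865 were at 0.505% of 396 calls in 5M-GS against 0 of 323 calls in 60M-GS, which allows a level of up to 0.929% (3 counts of the 323). Its window stood at 75.5% and 77.0%.

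A window's level is the sum of its methylated calls as a percent of all its calls. CpGs with under 5 calls, or above 74, in either table do not count. In 5M-GS the windows had a median level of 81.1%, with quartiles of 75.5% and 85.2% and a range from 23.5% to 91.3%. In 60M-GS the median was 85.5%, with quartiles of 81.7% and 87.7% and a range from 46.2% to 90.6%. The windows were thus higher and closer to each other in 60M-GS: their standard deviation was 7.99 points in 5M-GS and 5.13 points in 60M-GS. The number of windows under 70% was 600 in 5M-GS against 99 in 60M-GS, and 96 of them were under 70% in both. Those at 80% or more numbered 3010 and 4409. Over all calls of the windows (40769131 and 41113610) the level was 80.1% and 84.3%, a difference of 4.18 points. Its 95% interval from 4.16 to 4.19 covers counting error only and treats every call as independent.

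A window was said to rise or fall when Fisher's exact test on its calls (two-sided, Benjamini-Hochberg adjustment over all 23722 windows) gave an adjusted p under 0.05 and the difference was at least 10 percentage points. Of the 5414 windows, 807 (14.9%) rose in 60M-GS, against 5.07% of all autosomal windows. None of the 5414 fell by that rule, in which 0 of all windows fell. The adjusted p alone was under 0.05 for 3460 windows that were higher in 60M-GS and for 262 that were lower, and an unadjusted p under 0.05 for 312 that were lower. The median difference was 2.69 points (quartiles 0.431 and 6.63), and 4382 windows were higher in 60M-GS. By size, 1030 windows were lower by less than 5 points, 2 were lower by more, 2563 were higher by less than 5 points and 1012 by 5 to 10. A further 633 were higher by 10 to 20 points, 151 by 20 to 30 and 23 by at least 30. Every window that was higher by at least 10 points also passed the adjusted p. The limit of 10 points alone therefore set the count of 807. The 807 windows that rose made up 67.1% of all autosomal windows that did. With 20 points as the minimum 174 windows rose, and with 5 points 1819.

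**Figure D1:**
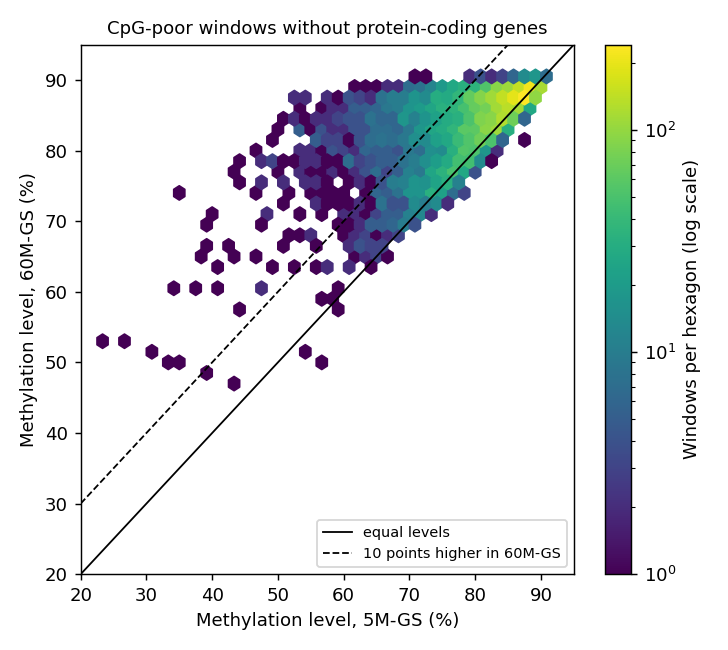
Methylation level of each of the 5414 windows in 5M-GS (x axis, %) and in 60M-GS (y axis, %), with the number of windows per hexagon on a log colour scale. The solid line marks equal levels and the dashed line 10 points more in 60M-GS; the windows crowd near 80% to 90% in both tables, and those that are low in 5M-GS lie far above the solid line.

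Compared with the other autosomal windows, the share that rose was 9.24% (305 of 3301) in CpG-poor windows that overlap a protein-coding gene. In windows with over 500 CpGs it was 1.31% (38 of 2906) without such a gene and 0.430% (52 of 12101) with one. Median differences in these 3 classes were 1.23, 0.685 and 0.228 points, and 0.764 points over all windows. These are counts over windows of 2 libraries, and the differences between classes were not tested. At the upper limit of the rule, the 116 windows without coding genes that held 491 to 500 CpGs had medians of 82.4% and 84.8%, and the 95 with 501 to 510 CpGs had 82.8% and 85.1%. At the lower limit, 11 windows with 100 to 120 CpGs had 73.1% and 76.1%, and 12 with 80 to 99 had 50.5% and 73.4%.

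The windows that rose had a median of 69.6% in 5M-GS (quartiles 63.3% and 73.7%) and 85.2% in 60M-GS (81.5% and 87.3%). The 4607 others had 82.4% and 85.5%. In 60M-GS the 2 sets therefore lay about level, whereas in 5M-GS they were far apart. Since rises were chosen by the change itself, the 5M-GS level was also read on every other CpG and the change on the remaining ones. Windows under 50% by the first set of CpGs (36) went from a median of 43.8% to 68.3% on the second set, and those at 50% to 60% from 56.4% to 79.4%. Those at 60% to 70% (457) went from 67.0% to 80.3%, those at 70% to 80% (1775) from 76.4% to 82.5%, those at 80% to 85% (1585) from 82.6% to 85.7% and those at 85% or more (1438) from 87.2% to 87.9%. The lower a window stood in 5M-GS, the more it differed, and windows under 50% were still the lowest in 60M-GS. With the sets exchanged, the median differences were 25.1, 23.2, 13.2, 5.28, 2.74 and 0.405 points in the same order, against 27.3, 22.0, 12.8, 5.24, 2.70 and 0.436. Both sets of CpGs were higher in 60M-GS in all 807 windows that rose, and both by at least 10 points in 714 of them (88.5%). Since the 807 were chosen by the change over both sets together, these counts describe them and are no separate support for the rises.

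Within the windows that rose, most bins were higher in 60M-GS. These windows were chosen by their summed change, so a large share of higher bins follows in part from that choice. In 10 kb bins with at least 10 CpGs, the windows that rose had 7427 of 7856 bins (94.5%) higher in 60M-GS, and 65.4% of bins were higher by at least 10 points. Every bin was higher in 538 of the 807 windows, and in 122 every bin was higher by at least 10 points. Bins lower by at least 10 points numbered 3 in these windows and 81 of 45440 in the others. The standard deviation between the bins of a window that rose had a median of 9.20 points in 5M-GS and 4.45 points in 60M-GS, and in the other windows 7.15 and 4.98 points. In the windows that did not rise, 56.9% of bins were higher in 60M-GS and 9.29% by at least 10 points.

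Single CpGs show the same from below. In the windows that rose, 269466 CpGs were measured, and the share at 20% to 80% methylation was 49.4% in 5M-GS against 20.9% in 60M-GS. The share above 80% was 43.5% and 75.6%, and that under 20% was 7.11% and 3.50%. In the other windows the share at 20% to 80% was 22.1% and 17.7%, and that above 80% was 72.6% and 77.8%. Intermediate CpGs were therefore common in 1 of these 4 sets, the windows that rose in 5M-GS. A CpG had a median of 19 calls in 5M-GS in both kinds of window, so a single CpG's level is coarse. In pooled cells, fewer methylated cells and fewer methylated alleles per cell cannot be told apart.

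**Figure D2:**
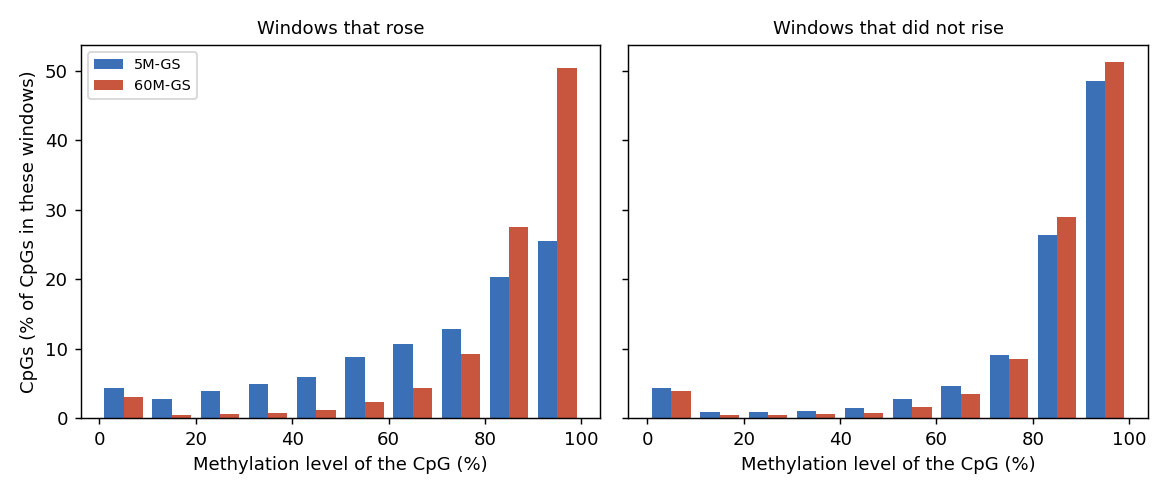
Share of CpGs (y axis, % of the CpGs in these windows) by methylation level of the CpG in steps of 10 points (x axis, %), in 5M-GS (blue) and 60M-GS (red). In the windows that rose (left), the 5M-GS bars spread over all levels while the 60M-GS bars gather above 80%; in the others (right), both tables gather above 80%.

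Level and difference both went with the spacing of CpGs inside the windows. CpGs with no other CpG within 250 bp (10.6% of those in the windows) were at 82.0% in 5M-GS against 84.0% in 60M-GS, and those with 1 to 2 neighbours (39.6%) at 82.6% and 84.8%. With 3 to 4 neighbours the levels were 82.4% and 85.3%, with 5 to 9 they were 76.5% and 84.1%, and with 10 or more (6.39% of CpGs) 62.5% and 78.0%. Local groups of CpGs were thus lowest in 5M-GS and differed by most, 15.5 points. In the windows that did not rise, the isolated CpGs differed by 0.320 points and those with 10 or more neighbours by 14.0 points. In the windows that rose, the isolated ones already differed by 11.6 points, those with 1 to 2 neighbours by 13.0, those with 3 to 4 by 16.05, those with 5 to 9 by 22.4 and those with 10 or more by 20.7. Without the CpGs that had 10 or more neighbours, 698 windows rose, 688 of them among the 807. The median difference over the 5414 windows was then 1.83 points instead of 2.69.

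The number of CpGs in a window went with the share that rose. It was 35.4% (34 of 96) at 100 to 200 CpGs, 23.8% (221 of 929) at 201 to 300, 14.8% (409 of 2771) at 301 to 400 and 8.84% (143 of 1618) at 401 to 500. Median levels over the same classes were 66.5%, 75.7%, 81.5% and 82.9% in 5M-GS, and 73.9%, 82.2%, 86.2% and 85.8% in 60M-GS. Depth moved with the number of CpGs: the median was 18.8 calls per CpG in 5M-GS in the first class and 21.5 in the last. Among the 1083 windows with the fewest 5M-GS calls per CpG 25.1% rose, and among the 1083 with the most 6.28% did. The part of depth in the result was not tested.

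Windows far from genes rose more often. The share was 10.5% (131 of 1243) up to 100 kb from the nearest protein-coding gene, 10.6% (128 of 1206) from 100 to 250 kb and 11.8% (148 of 1253) from 250 to 500 kb. It was 20.4% (231 of 1130) from 500 kb to 1 Mb and 29.0% (169 of 582) beyond 1 Mb. Median levels in 5M-GS were 81.1%, 81.7%, 81.9%, 80.4% and 78.7%, whereas in 60M-GS they were 84.7%, 85.4%, 85.8%, 85.9% and 85.7%. The lower 5M-GS level of the most distant windows was thus no longer seen in 60M-GS. Distant windows also held fewer CpGs, with a median of 320 beyond 1 Mb and 386 up to 100 kb. At 301 to 400 CpGs, 22.2% of 986 windows beyond 500 kb rose and 10.6% of 1785 nearer ones. At 401 to 500 CpGs these shares were 18.97% of 232 and 7.14% of 1386, and at 100 to 300 CpGs 27.7% of 494 and 22.2% of 531. Distance did not by itself mean a rise. The 3 windows farthest from a coding gene, over 2.1 Mb away, all missed the 10 point limit. They were the window near the protocadherin gene Pcdh9 on chromosome 14 from 90700001 to 90800000 (72.3% and 74.5%, 2213.7 kb) and 2 on chromosome 18, from 28000001 (79.1% and 80.5%) and from 27900001 (89.8% and 88.3%).

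The windows fell into 1064 unbroken runs, with a median length of 2 windows and 429 single windows. Of the runs, 170 had at least 10 windows and together held 3096. The share that rose was 11.4% of single windows, 7.99% in runs of 2 to 4, 10.2% in runs of 5 to 9, 14.6% in runs of 10 to 19 and 22.9% (361 of 1576) in runs of 20 or more. Inside runs of at least 10 windows, 10.6% of the 340 end windows rose, 13.4% of the 1020 windows 2 to 4 places from an end and 23.6% of the 1736 farther in. The median 5M-GS level at these 3 places was 82.3%, 81.3% and 79.5%, and the 60M-GS level was 85.6%, 85.8% and 85.8%. Rises were unevenly shared among long runs: of the 57 runs of at least 20 windows, 10 had rises in 50% or more of their windows and 15 had none.

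**Figure D3:**
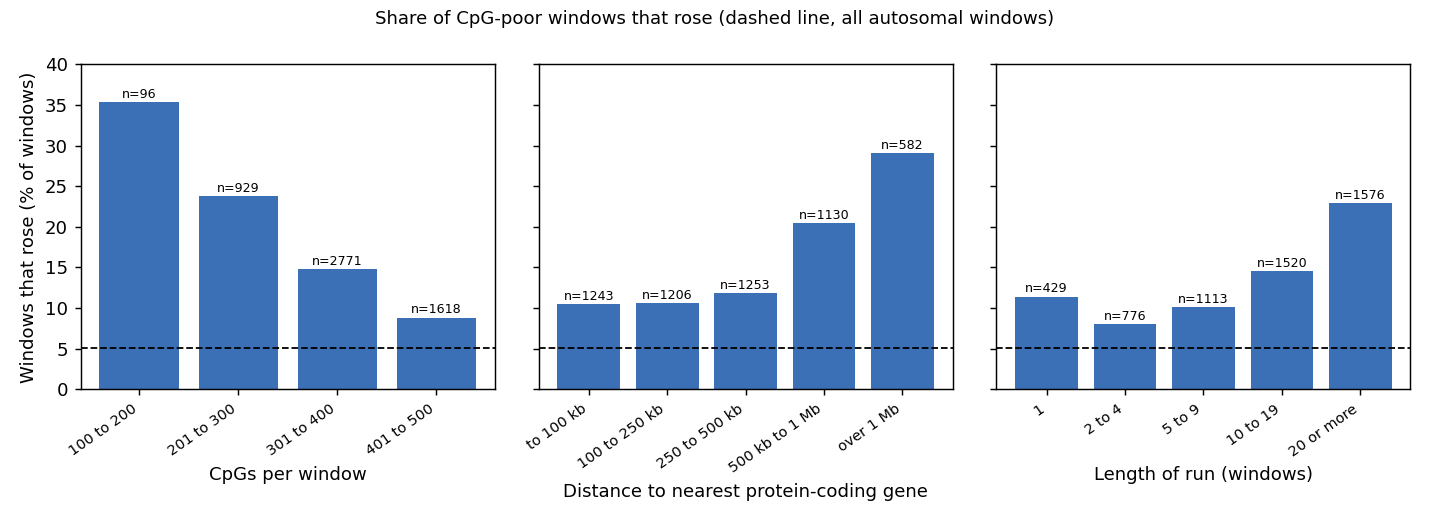
Share of windows that rose (y axis, % of windows, from 0) by CpGs per window, by distance to the nearest protein-coding gene and by length of the run in windows; n is the number of windows in a bar. The dashed line is the 5.07% of all autosomal windows; shares fall with the number of CpGs and are highest beyond 500 kb and in runs of 20 or more.

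The longest run of all, 45 windows on chromosome 14 from 88500001 to 93000000 between the protocadherin genes Pcdh20 and Pcdh9, stood at 73.4% in 5M-GS against 81.5% in 60M-GS, and 14 of its windows rose. A run of 42 windows on chromosome 1 from 100500001 to 104700000, between Cntnap5b, of the neurexin-like family, and the cadherin gene Cdh20, stood at 73.9% and 84.0%, and 22 rose. Another run of 42 windows, on chromosome 18 from 25800001 to 30000000 between the RNA-binding protein gene Celf4 and the lipid kinase gene Pik3c3, stood at 87.3% and 87.7%, and 0 rose. Gene deserts of nearly the same length thus differed in 5M-GS and came closer in 60M-GS. The 41 windows on chromosome 14 from 80300001 to 84400000, between Olfm4 and Pcdh17, stood at 77.0% and 84.1%, with 10 rises. The 39 on chromosome 1 from 47000001 to 50900000, between the zinc transporter gene Slc39a10 and Tmeff2, stood at 76.0% and 85.2%, with 20.

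Adjoining windows that rose formed 383 runs, of which 241 were single windows and 82 spanned at least 3 windows. These 82 held 446 of the 807 windows. The longest covered 20 windows on chromosome 4 from 78700001 to 80700000, between the receptor phosphatase gene Ptprd and the pigment gene Tyrp1, at 62.7% in 5M-GS against 82.0% in 60M-GS. Its windows ranged from 48.5% to 79.4% and from 71.1% to 90.0%. Next were 16 windows on chromosome 1 from 144800001 to 146400000, between Rgs18, a regulator of G-protein signalling, and Brinp3 (62.2% and 82.0%). The same number lay on chromosome 3 from 43300001 to 44900000, before Pcdh10 (62.9% and 85.7%). In that run the lowest 60M-GS window, at 78.3%, was above the highest 5M-GS window, at 71.6%, so the levels did not overlap. All windows of these runs were chosen for a rise of at least 10 points, which favours such a gap. The runs on chromosomes 16 and 14 named next had a gap too, while those on chromosomes 4 and 1 had none. Then came 13 windows on chromosome 16 from 60700001 to 62000000, between the ephrin receptor gene Epha6 and the tRNA methyltransferase gene Nsun3 (67.6% and 85.5%), and 12 on chromosome 14 from 90900001 to 92100000 (72.1% and 86.7%), inside the longest run of all.

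**Figure D4:**
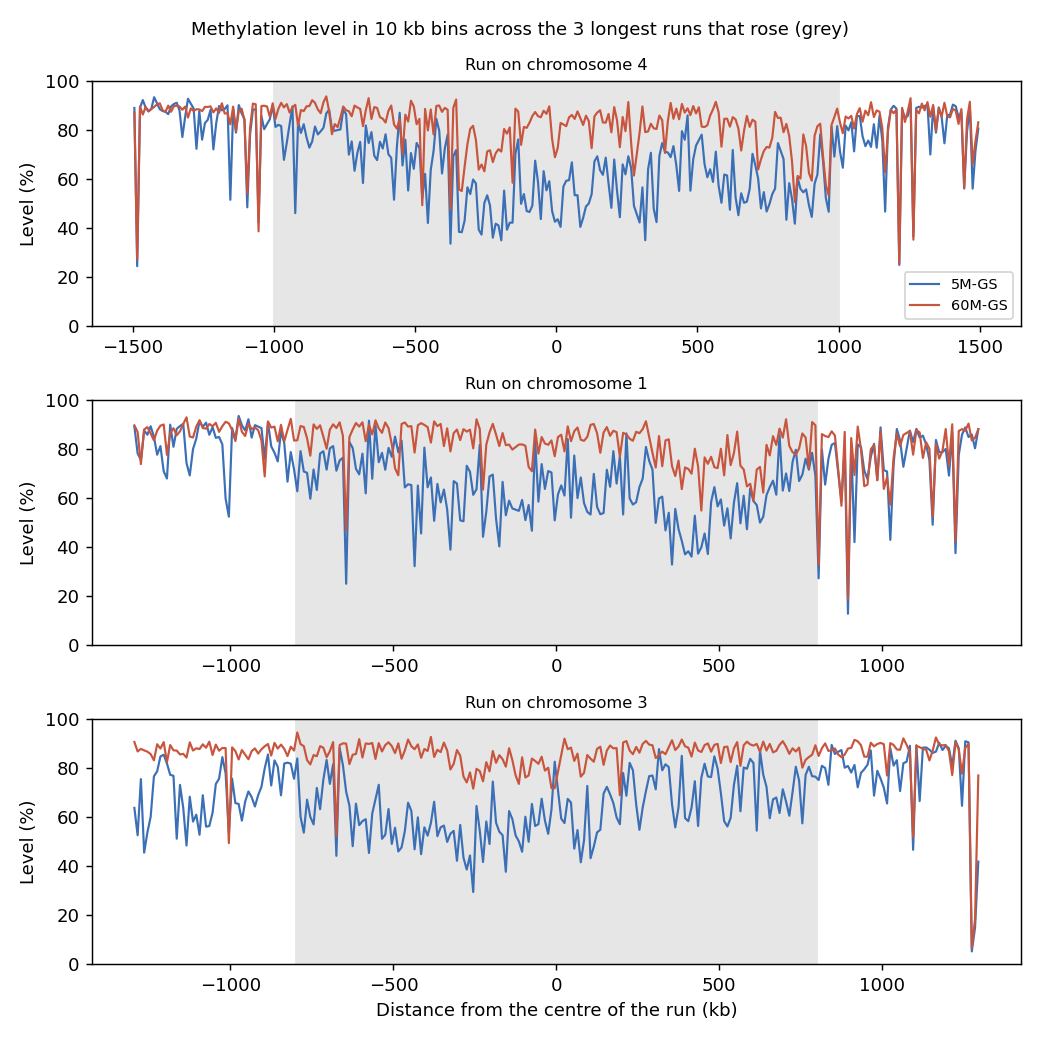
Methylation level (y axis, %) in 10 kb bins by distance from the centre of the run (x axis, kb), across the 3 longest runs that rose (grey) and 500 kb on each side, in 5M-GS (blue) and 60M-GS (red). Inside the runs the blue line sags to medians of 62.3%, 63.8% and 62.5% while the red line has medians of 84.2%, 84.7% and 87.1%. Single bins dip in both lines inside as well as outside, and the lowest 60M-GS bins inside the runs are at 47.7%, 46.8% and 52.3%.

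On both sides of the run on chromosome 4 the median 10 kb bin stood at 85.8% and 87.8%, and inside it at 62.3% and 84.2%. For the run on chromosome 1 these values were 81.9% and 86.6% outside and 63.8% and 84.7% inside. Beside the run on chromosome 3 the level was already lower in 5M-GS, at 77.1% and 87.9%. Over all 807 windows, adjoining windows outside the set often rose as well. Of 119 adjoining CpG-poor windows that overlap a protein-coding gene, 61 rose, with medians of 67.4% and 79.9%, whereas 31 of 605 such windows next to a window that did not rise did so. Of 25 adjoining windows with over 500 CpGs and a coding gene, 3 rose, against 9 of 598 next to a window that did not rise. Of 22 adjoining windows with over 500 CpGs and no coding gene, 12 rose, against 11 of 518.

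The largest single rise lay on chromosome 17 from 38700001 to 38800000, 54.3 kb from Esp31, a gene of the exocrine gland-secreted peptides that act as pheromones. It stood at 35.6% of 5519 calls in 5M-GS against 73.5% of 5822 calls in 60M-GS. The gap was 37.9 points, with an interval from 36.2 to 39.6. Both further windows on that chromosome among the 8 largest, from 39200001 and from 39300001 near Esp18 of the same family, stood at 43.8% and 77.8% and at 43.5% and 77.7%. Close copies lie near each other in that peptide family, and reads of copies cannot be told apart with certainty. The part of such reads in these windows was not tested. A window on chromosome 8 from 51800001 to 51900000, 1612 kb from the lysosomal enzyme gene Aga, stood at 52.6% and 87.3%, a difference of 34.6 points (33.3 to 36.0). One on chromosome 3 from 43600001 to 43700000, 1678 kb from Pcdh10, stood at 53.0% and 87.5%, and another, on chromosome 16 from 61100001 to 61200000, 489 kb from Epha6, stood at 51.1% and 84.6%. The remaining 2 were on chromosome 6 from 130800001 (46.0% and 79.8%, near LOC115490339) and on chromosome 3 from 74400001 (53.7% and 87.2%, near the predicted gene Gm6098). In each of these 8 windows 10 of 10 bins of 10 kb were higher by at least 10 points.

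No window was lower by 10 points. The largest difference in that direction was -6.48 points (interval -8.08 to -4.88), on chromosome 12 from 19100001 to 19200000 near the predicted gene Gm40847, at 57.0% and 50.5%, where 3 bins could be measured. Next was a window on chromosome 5 from 68900001 to 69000000, 109 kb from Kctd8, a subunit associated with GABA-B receptors, at 86.9% and 81.7%. The other 6 differed by -3.81 to -3.41 points. They lay near Nr5a2, a nuclear receptor gene (80.2% and 76.4%), Nfia, a nuclear factor I gene (82.3% and 78.5%), Triml1 (78.0% and 74.4%), Gm15319 (54.3% and 50.8%), the sialyltransferase gene St3gal1 (88.0% and 84.5%) and 1700017N19Rik (77.6% and 74.2%). The 5 windows with the highest 5M-GS level were all slightly lower in 60M-GS. They lay near Khdrbs3 (91.3% and 89.9%), Pappa (90.8% and 89.7%), A1bg (90.8% and 89.7%), Celf4 (90.7% and 89.8%) and Nbas (90.6% and 89.6%). Since these 5 were chosen by their 5M-GS level, a lower level in 60M-GS follows in part from that choice. By Fisher's exact test the adjusted p was 0.058 for the window near Pappa and 0.10 for that near Celf4.

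The lowest window in 5M-GS lay on chromosome 6 from 114500001 to 114600000, 16.7 kb from the histamine receptor gene Hrh1, at 23.5% of 1810 calls and 53.5% of 1773 calls on 127 CpGs. The next 4 all lay in the immunoglobulin heavy chain locus on chromosome 12, from 114300001 to 114800000, at 26.9% to 34.97% in 5M-GS against 50.2% to 60.2% in 60M-GS. Variable (V) gene segments, which B and T cells join to build antigen receptors, are annotated apart from protein-coding genes, so their loci count among these windows. Of 58 windows with a V segment 21 (36.2%) rose, against 14.7% of the 5356 without one, and all 21 lay in 2 loci of neighbouring windows. The 16 on chromosome 12 had medians of 40.2% and 60.5%, and 11 rose. The 30 on chromosome 6 from 67700001 to 70700000, the kappa light chain locus, had 78.8% and 87.6%, and 10 rose. The 8 on chromosome 14, in the T cell receptor alpha and delta locus, had 73.1% and 77.7%, and 0 rose. The median of the heavy chain windows was thus far below the medians of the kappa and the T cell receptor alpha and delta windows in both tables. Single windows overlapped. The heavy chain windows ranged from 26.9% to 81.3% in 5M-GS and from 50.2% to 79.7% in 60M-GS. The kappa windows ranged from 64.8% to 87.8% and from 77.1% to 90.1%. The heavy chain windows were sparse, with a median of 165 measured CpGs, and their V segments are similar to each other, so that reads may be placed among copies; the DNA is of another strain background than the reference, and the part of either was not tested.

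Other genes inside the windows were non-coding. A lncRNA gene overlapped 1188 windows, of which 7.41% rose, against 17.01% of the 4226 without one. Windows with a lncRNA gene held more CpGs (median 388 against 352). Within 100 to 300 CpGs the shares were 18.9% with and 25.9% without, within 301 to 400 CpGs 7.20% and 16.5%, and within 401 to 500 CpGs 4.37% and 10.99%. Windows with no annotated gene of any kind numbered 2882, and 15.6% of them rose. A pseudogene lay in 1356 windows, of which 18.7% rose. Among lncRNA 5' ends with at least 2 measured CpGs, the 20 in windows that rose had medians of 67.4% and 88.5%, and 10 were higher by at least 20 points. The 383 in other windows had medians of 85.1% and 86.6%, with 50 higher and 8 lower by 20 points. Of those 383, 28 were under 20% in both tables, like the Gm32865 end printed above.

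A miRNA gene lay in 34 windows, of which 12 (35.3%) rose, against 14.8% of the 5380 without one. Neighbouring windows are not independent, so this share is a count and was not tested. The windows of Mir7094-1 and Mir7094-2, also among the 12, lie in the heavy chain locus described above. Of these 12, 5 adjoining windows hold a cluster of 13 Mir344 genes, on chromosome 7 from 61600001 on, inside a run of 10 windows that rose from 61200001 to 62200000, before the imprinted gene Ndn. The run stood at 55.8% in 5M-GS against 73.6% in 60M-GS, and its windows ranged from 47.0% to 59.0% and from 64.2% to 79.0%. The windows with miRNA genes were at 59.0% and 71.8%, 55.1% and 66.5%, 49.0% and 64.2%, 55.3% and 67.6%, and 57.7% and 74.4% in the order of the chromosome. The 18 distinct mature sequences of the cluster have 11 distinct seeds (bases 2 to 8). The most common seed, GUCAGGC, is that of 6 sequences, which are shown with the seed in capitals as the largest group that shares one. They are printed 5' to 3' from RefSeq.
mmu-miR-344d-1-5p: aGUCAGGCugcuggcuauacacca
mmu-miR-344d-3-5p: aGUCAGGCuagugguuauacucc
mmu-miR-344b-5p: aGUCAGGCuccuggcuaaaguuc
mmu-miR-344c-5p: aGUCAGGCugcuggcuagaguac
mmu-miR-344-5p: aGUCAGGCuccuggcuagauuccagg
mmu-miR-344g-5p: aGUCAGGCuccuggcaggagu

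The nearest protein-coding genes were grouped by family. Cadherins and protocadherins, adhesion proteins of cell surfaces, were nearest to 360 windows of 18 genes, and 85 windows (23.6%) rose, with medians of 77.9% and 84.8%. Most of these rises lay around a few genes. Pcdh10 had 14 of 21 windows rise (71.4% and 87.1%), Pcdh9 12 of 33 (74.1% and 85.6%), Cdh20 12 of 22 (76.3% and 86.3%) and Cdh7 10 of 14 (69.6% and 84.4%). Synaptic adhesion and guidance genes were nearest to 419 windows, and 53 (12.6%) rose, among them 10 of 10 at Epha6, 10 of 27 at Cntnap5b and 7 of 28 at Lrrc4c, a ligand of netrin G. Olfactory and vomeronasal receptor genes, which detect odours and pheromones, were nearest to 36 windows, of which 21 (58.3%) rose, with medians of 66.3% and 82.7%. Their 21 rises were spread over 18 of 31 genes.

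Ion channel and transmitter receptor genes were nearest to 144 windows, and 35 (24.3%) rose, of which 13 of 20 windows lay at the kainate receptor gene Grik2 (73.9% and 87.3%) and 9 of 14 at the potassium channel gene Kcnt2 (72.9% and 86.9%). Transcription factor genes were nearest to 99 windows, and 19 (19.2%) rose, among them 4 of 8 at Zfhx4 (76.5% and 86.97%). Predicted genes were nearest to 237 windows, and 55 (23.2%) rose. Over all 5414 windows the share was 14.9%. Windows near the same gene are neighbours and not independent, so these family shares are counts and were not tested against the others.

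Every autosome held windows that rose, but unevenly. On chromosome 1 160 of 521 windows rose (30.7%; medians 77.0% and 84.4%), on chromosome 3 142 of 501 (28.3%; 78.8% and 85.3%) and on chromosome 7 43 of 178 (24.2%; 78.9% and 83.2%). The smallest shares were on chromosome 11, with 6 of 191 (3.14%; 82.4% and 85.1%), and chromosome 18, with 13 of 222 (5.86%; 84.0% and 86.5%). Median levels lay between 77.0% and 84.96% in 5M-GS, compared with 82.4% to 86.9% in 60M-GS, so the chromosomes also stood closer together in 60M-GS. On chromosome 14 the median was 77.6% and 82.4%, yet 10.4% of windows rose. The longest run of rises per chromosome was between 1 window, on chromosome 11, and the 20 on chromosome 4.

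**Figure D5:**
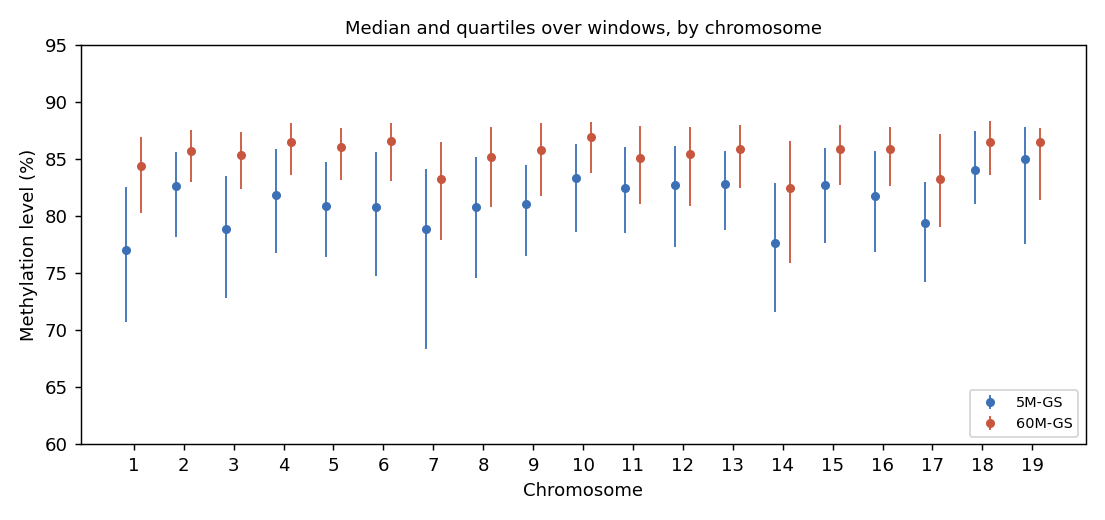
Median methylation level of the windows (y axis, %, from 60 to 95) on each autosome (x axis) in 5M-GS (blue) and 60M-GS (red), with bars from the lower to the upper quartile over windows. The 60M-GS median is the higher one on all 19 chromosomes, by most on chromosome 1 (77.0% and 84.4%) and by least on chromosome 19 (84.96% and 86.4%).

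Median depth over the windows was close in both tables, but not on every chromosome. A window held a median of 7380 calls in 5M-GS against 7440 in 60M-GS, or 20.5 and 20.8 calls per CpG. On chromosome 15 the medians were 25.3 and 21.1 calls per CpG and 23 of 281 windows (8.19%) rose. On chromosome 16 they were 22.8 and 20.5, and 31 of 248 windows (12.5%) rose. On chromosome 17 they were 20.1 and 20.5. Without these 3 chromosomes 730 of 4701 windows (15.5%) rose. The ratio of 60M-GS to 5M-GS calls had a median of 1.017 in windows that rose and 1.025 in the others, with quartiles of 1.00 and 1.04 over all windows. Among the 1083 windows with the lowest ratio 19.9% rose, and among the 1083 with the highest 11.8%. With only windows whose ratio lay within 10% of the median, 753 windows rose.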

How the data were processed

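Bisulfite libraries of 5M-GS and 60M-GS cells were sequenced. The submitters' processing notes name Bismark 0.10.0 and the build mm10. The deposited tables hold counts of methylated and of unmethylated calls per CpG, not normalized, and the percent of methylated calls that the authors derived from them. Per the labels, both replicates of an age point to the same table, which is taken as their pool. In RefSeq promoter sequences, 279290 of 284536 autosomal CpGs (outside CGCG) were listed at the plus-strand C and 0 at the G, so each CpG has 1 entry for both strands. Whether reads were deduplicated is not given in the sources used here.

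Levels, windows and runs were computed from the counts with Python 3.11.15 and SciPy 1.17.1. The tables hold 468121185 and 471693518 calls, with medians of 21 and 22 per CpG. Intervals are 95% Wilson or Newcombe intervals and cover counting error only. Both they and Fisher's exact test treat every call as independent. Calls on 1 read are not independent, so the intervals can be too narrow and the p-values too small. Genes came from RefSeq (GRCm38.p6). The Fisher test script was tested on simulated data drawn without any spread between replicates. Named were the 8 largest differences in each direction, the 5 lowest and 5 highest 5M-GS levels, the 5 longest runs of each kind, the 3 most distant windows and up to 4 genes per family. Windows, lists and gene families were chosen with earlier results of these data known. Alternatives changed the coverage minimum, depth limit, window, CpG range, gene rule, difference and test. The X chromosome was not analysed here. One named item is not reported here.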

Additional observations from a re-analysis of the deposited data

How the results depend on the processing

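The count of 807 windows that rose stayed between 676 and 841 under 10 alternatives: 10 calls in both tables, every CpG kept, CpGs above 40 calls left out, the mean of single CpG levels, windows shifted by 50 kb, 100 to 750 CpGs, no coding gene within 100 kb, without CpGs in local groups (10 or more others within 250 bp), without chromosomes 15, 16 and 17 (of which 15 and 16 were deeper in 5M-GS), and windows of like depth ratio. Calls divided by 10 left 804, but only the test used the divided calls and the differences were unchanged. Since the limit of 10 points set the main count, a value near 807 was to be foreseen there. The count was 1834 with windows of 50 kb, 255 at 100 to 300 CpGs, 451 without any annotated gene, 1819 at 5 points and 174 at 20 points. These 5 change the number of windows or the limit itself, and several of the 10 also change the number of windows. At 100 to 750 CpGs 11.9% of 7095 windows rose, against 14.9% of the 5414. The share was 16.2% of 4171 without a coding gene within 100 kb and 15.5% of 4701 without the 3 chromosomes. Among windows of like depth ratio it was 15.4% of 4885. The last 3 settings leave windows out, which by itself lowers the count. Falls numbered 0 under all alternatives except 2 at 5 points. At 5 points 165 runs of 3 or more windows rose instead of 82. The median 5M-GS level (81.1%) was 81.6% in 50 kb windows, 75.1% at 100 to 300 CpGs, 81.3% at 100 to 750 CpGs and 82.5% without local groups. The median 60M-GS level (85.5%) was 85.9%, 81.6%, 85.02% and 85.9% under these, 85.2% as a mean of CpG levels, 85.8% without any annotated gene and 85.7% without a coding gene within 100 kb. The median difference (2.69 points) was 2.17 in 50 kb windows, 4.43 at 100 to 300 CpGs, 2.11 at 100 to 750 CpGs, 1.83 without local groups, 2.51 as a mean of CpG levels and 2.95 without a coding gene within 100 kb. The 8 largest rises stayed between 31.5 and 38.3 points in 48 of 48 recomputations. Those with calls divided by 10 repeat the main differences by construction. The 8 windows were chosen as the largest on much the same calls, so these values describe them and are no separate support. No paired analysis was possible because both replicates of an age share 1 table, and for the same reason no replicate could be left out. Single CpGs, with a median of 19 calls in 5M-GS, are limited by depth, and the part of depth in the window calls was not tested.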
